A study of Mus musculus with 6 samples.

Results

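The cytosolic ribosomal protein genes of mouse cerebral cortex were examined across SAMR1 + Water, SAMP8 + Water and SAMP8 + STEE mice. Members were the genes whose array symbol was of the form Rpl, Rps or Rplp with a number, S6 kinase genes left out, with at most 1 letter after the number (for Rpl genes also a last digit, as in Rpl7l1), which gave 80 of the 22527 gene symbols on the array and 230 of its 45077 probe sets. SAMP8 is an inbred, non-transgenic mouse strain with accelerated senescence, and SAMR1 is the related strain that resists it. All mice were male, 16 weeks old by the labels and housed singly, and the cortex was taken after the dosing and tests described next. SAMP8 + STEE mice were given sugarcane top ethanolic extract (STEE) by mouth at 20 mg/kg for 30 days and then through 8 further days of behavioral tests, and both Water groups received the same volume of water. By the paper, the animals of all groups also received BrdU, a label of dividing cells, in their drinking water for part of the dosing. Each group had 2 biological samples, 6 arrays in all. Whether a sample was 1 mouse or a pool is not given in the sources used here. No SAMR1 group received STEE.

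The values were the authors' means of each group on the log2 scale. The spread between the arrays of a group was not analysed here, so no difference below carries a replicate error, a test or a p-value, and each is a description of 3 group means. A difference of 0.14 on the log2 scale is just past 1.1-fold, the fold used below to count genes. Each gene was read from its brightest probe set, and values were compared between groups for a probe set, not between genes.

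The ribosome reads mRNA on its small 40S subunit and joins amino acids on its large 60S subunit. Its proteins are made in matched amounts, and unassembled ones are degraded. Their mRNAs begin with a run of pyrimidines, the 5′ terminal oligopyrimidine (TOP) motif, through which mTOR signaling and the binding protein Larp1 adjust their translation together. In neurons, ribosomes in dendrites and axons serve local protein synthesis at synapses. Of the 80 members, 47 encode 60S proteins or their paralogues, 30 encode 40S proteins or their paralogues, and 3 (Rplp0, Rplp1 and Rplp2) encode the P-stalk of the 60S subunit, which recruits the elongation factors.

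RefSeq promoter windows (GRCm38.p6, 250 bases before to 50 after the annotated start) were found for 60 of the 80 members. They are shown for 5 of the members lower by 1.1-fold or more in SAMP8 + Water (Rpl13a, Rpl14, Rpl35, Rps27 and Rpl27) and for 2 members that were higher in SAMP8 + Water at their brightest probe set (Rps18 and Rpl7l1), as the 30 bases before and the 30 bases after the start. Other probe sets of Rps18 and Rpl7l1 differed in direction, and Rpl7l1 lay within the range of the nonspecific control probe sets, as described below. Capitals mark a C followed by at least 6 more C or T that begins within 15 bases of the start, the letters looked for on the gene's own strand as a sign of the TOP motif.
Rpl13a (chr7:45128716-45128775, minus strand): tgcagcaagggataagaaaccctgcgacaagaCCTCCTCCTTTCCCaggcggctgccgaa
Rpl14 (chr9:120571487-120571546, plus strand): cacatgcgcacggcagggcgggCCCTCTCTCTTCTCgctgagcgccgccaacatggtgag
Rpl35 (chr2:39005102-39005161, minus strand): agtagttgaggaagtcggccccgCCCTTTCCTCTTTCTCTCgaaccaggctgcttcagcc
Rps27 (chr3:90213619-90213678, minus strand): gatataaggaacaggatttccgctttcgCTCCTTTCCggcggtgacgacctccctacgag
Rpl27 (chr11:101442215-101442274, plus strand): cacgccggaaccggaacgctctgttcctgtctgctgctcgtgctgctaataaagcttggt
Rps18 (chr17:33955636-33955695, minus strand): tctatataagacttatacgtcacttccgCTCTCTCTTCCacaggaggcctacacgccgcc
Rpl7l1 (chr17:46782627-46782686, minus strand): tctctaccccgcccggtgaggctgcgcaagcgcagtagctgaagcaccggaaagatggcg

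Such a run was present in 31 of the 72 member windows (43.1%) and in 15.9% of all 32851 promoter windows. Of the 7 members shown, it was present in Rps18, which was higher in SAMP8 + Water at its brightest probe set, and in 4 of the 5 that were lower. It was not found in these windows of Rpl27 and Rpl7l1. The letters CCGGAAG, the core bound by ETS family factors, were searched on both strands of the whole window and were present in 34.7% of member windows and 8.86% of all windows. These shares are of windows, and the 72 member windows belong to 60 genes. The medians that follow are over genes. In SAMP8 + Water against SAMR1 + Water, the median log2 difference was -0.05 for the 31 members with the pyrimidine run and -0.07 for the 29 without it. It was -0.05 for the 24 members with CCGGAAG and -0.08 for the 36 without. A match describes the letters of the window and is not evidence of a site in use.

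The comparison of SAMP8 + Water with SAMR1 + Water asks how the senescence-prone strain differed when neither group received the extract. Most members were slightly lower in SAMP8 + Water. Of the 80 genes, 69 were lower, 2 were equal and 9 were higher, with a median log2 difference of -0.06 and a range of -0.31 to 0.18. Of all 45077 probe sets, 49.6% were lower and the median difference was 0. The members are among the brightest probe sets of the array, and 437 probe sets of no member also had a mean log2 signal of 10 or more. Of these, 28.1% were lower, with a median of 0.03. Large differences were not frequent among the members. By 1.1-fold or more, 8 members were lower (background 13.5% of all probe sets and 8.01% of the bright ones of no member) and 1 was higher, Rpl7l1 (background 12.4%), so the share of members lower by that much lay between those backgrounds. In cortex as a whole, fewer cells of a type and less mRNA per cell cannot be told apart.

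The 5 largest negative differences were all among 60S genes. Rpl13a (chr7:45125563-45128745), whose protein can leave the ribosome to silence inflammatory mRNAs, had a log2 mean of 11.20 in SAMR1 + Water, 10.89 in SAMP8 + Water and 10.89 in SAMP8 + STEE. It was thus 1.24-fold lower in SAMP8 + Water than in SAMR1 + Water, and the SAMP8 groups had the same value. All 4 of its probe sets with a signal of 8 or more were lower, by -0.33 to -0.15. Rpl36 (chr17:56610094-56614246) had log2 means of 9.59, 9.34 and 9.32 in the same order of groups. Its 3 probe sets differed by -0.40 to -0.25, so the brightest one gave the smallest difference, and all 3 also match the predicted genes Gm4604 and LOC637553.

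Rpl30 (chr15:34440505-34443276) had log2 means of 10.47, 10.23 and 10.26 in SAMR1 + Water, SAMP8 + Water and SAMP8 + STEE. The probe set is shared with 5 predicted genes, and the other 2 probe sets of Rpl30 were dim and differed in opposite directions, by -0.11 and 0.29. Rpl14 (chr9:120571517-120574653) had log2 means of 9.75, 9.53 and 9.58 in that order. Its 5 bright probe sets name no other gene, and all were lower in SAMP8 + Water, by -0.27 to -0.17. Rpl35 (chr2:39001581-39005131), a protein at the exit of the tunnel through which the new peptide leaves, had log2 means of 10.38, 10.17 and 10.27. All 5 of its bright probe sets were lower in SAMP8 + Water, by -0.21 to -0.11. In each of these genes both SAMP8 groups lay below SAMR1 + Water.

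The other members past 1.1-fold were Rps27, Rpl27 and Rps12. Rps27 (chr3:90212667-90213648), a zinc-finger protein of the 40S subunit, had log2 means of 10.50, 10.31 and 10.29 in SAMR1 + Water, SAMP8 + Water and SAMP8 + STEE, on a probe set shared with Gm9846. Rpl27 had log2 means of 9.22, 9.06 and 9.06, but its other bright probe sets differed by -0.12 and -0.01, so its value depended on the probe set. Rps12 had log2 means of 10.87, 10.72 and 10.76, and its 3 bright probe sets, all shared with Rps12 pseudogenes, were lower by -0.15 to -0.09. A group of 19 members followed with log2 differences of -0.13 to -0.10. They included Rpl11, which binds Mdm2 when ribosome assembly is disturbed, Rps27a, which is made as a fusion with ubiquitin, Rps19, the gene most often mutated in Diamond-Blackfan anemia, and Rpl12, Rpl13, Rpl21, Rps20, Rps23 and Rps25. A further 25 members were lower by -0.09 to -0.05 and 17 by -0.04 to -0.01.

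**Figure D1:**
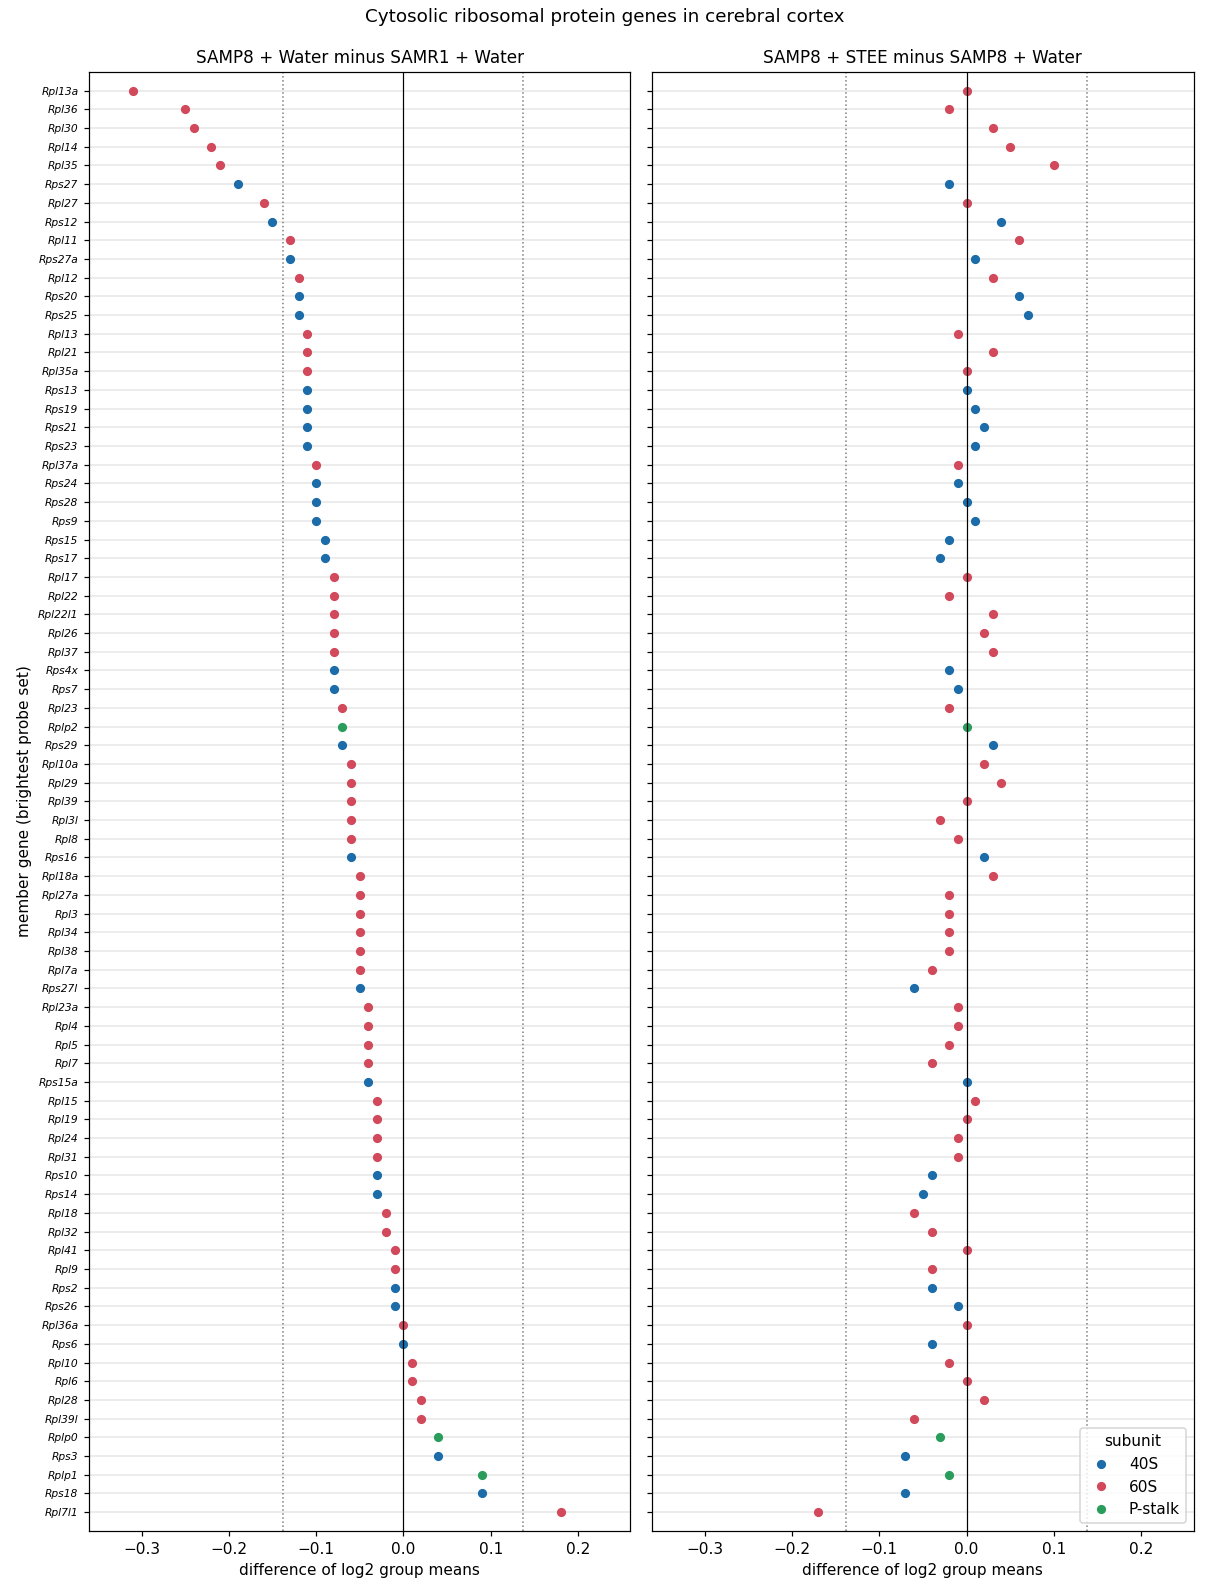
Difference of log2 group means for 77 of the 80 members, each a point at its brightest probe set, ordered by the strain comparison on the left and coloured by subunit. Dotted lines mark 1.1-fold; on the left 66 points lie below 0, on the right 40 do, and both panels use the SAMP8 + Water arrays, so the order of one is not independent of the other.

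The median difference was lower for the small subunit than for the large one. Of the 30 genes of the 40S subunit, 27 were lower in SAMP8 + Water and the median log2 difference was -0.095, with a range of -0.19 to 0.09. Of the 47 genes of the 60S subunit, 41 were lower and the median was -0.05, with a range of -0.31 to 0.18. The 25th to 75th percentiles were -0.11 to -0.0425 for the 40S genes and -0.09 to -0.03 for the 60S genes, a similar spread. The means over genes lay closer together than the medians, at -0.0773 for the 40S genes and -0.0689 for the 60S genes. The 40S genes thus had the lower median and the 60S genes the wider range, and the difference between the subunits was not tested. The upper end of the 60S range is Rpl7l1, at a signal within the range of the nonspecific control probe sets. Rps6, the 40S protein phosphorylated by S6 kinase, had log2 means of 11.11, 11.11 and 11.07 in SAMR1 + Water, SAMP8 + Water and SAMP8 + STEE. Of its 11 probe sets, 9 were lower in SAMP8 + Water, 1 was equal and 1 was higher, so the equal value of the brightest one was not that of the gene's other probe sets.

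Only 1 of the 3 P-stalk genes had the direction of most members. Rplp0, the scaffold of the stalk, had log2 means of 9.99, 10.03 and 10 in SAMR1 + Water, SAMP8 + Water and SAMP8 + STEE. Rplp1 had log2 means of 11.44, 11.53 and 11.51, so both SAMP8 groups lay above SAMR1 + Water. Rplp2, which pairs with Rplp1 on the stalk, was lower in both SAMP8 groups, at 10.59, 10.52 and 10.52. Each of the 3 has a single probe set with a signal of 8 or more, and no second bright one bears on these differences.

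The other higher members, apart from Rpl7l1 described below, differed by at most 0.09. Rps18, a protein of the head of the 40S subunit, had log2 means of 9.93, 10.02 and 9.95, and its 3 bright probe sets differed by -0.03 to 0.09 between the strains. Rps3, which lines the mRNA entry channel of the 40S subunit, had log2 means of 10.08, 10.12 and 10.05. Rpl28, Rpl39l, Rpl6 and Rpl10 were higher by 0.01 to 0.02, which is no more than 2 rounding steps of the deposited values. The other bright probe set of Rpl10 was higher by 0.11, and Rpl10 was the 1 gene with several bright probe sets that were all higher in SAMP8 + Water.

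Paralogues were read beside their partners, each gene against itself across groups. Rpl7l1 (chr17:46773907-46782656), a relative of Rpl7 with a role in 60S assembly, had log2 means of 6.20, 6.38 and 6.21 in SAMR1 + Water, SAMP8 + Water and SAMP8 + STEE, the largest positive difference of any member between the strains. Its mean log2 signal of 6.26, and those of its other probe sets, lay within the range of the 23 nonspecific control probe sets of the array (2.03 to 6.85), so its differences are given as values and not read as changes of the gene. That range is wide, with a median control level of 2.43. The controls themselves differed by -0.06 to 0.09 between the strains and by -0.05 to -0.02 with STEE. Whether a probe set within the range measured nonspecific signal only was not tested. The 3 probe sets of Rpl7l1 gave unlike values. They differed between the strains by 0.18, 0.27 and -0.07, and between SAMP8 + STEE and SAMP8 + Water by -0.17, 0.06 and 0.06. Its partner Rpl7 had log2 means of 10.22, 10.18 and 10.14. Rps27l, a p53 target related to Rps27, had log2 means of 7.47, 7.42 and 7.36, and its other 2 probe sets were lower in both SAMP8 groups too. Rpl22l1 had log2 means of 9.79, 9.71 and 9.74, and its partner Rpl22 9.86, 9.78 and 9.76, the same difference of -0.08 between the strains.

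Rpl3l, the striated muscle form of Rpl3, gave log2 means of 2.76, 2.70 and 2.67, and Rpl39l, the form of Rpl39 known from testis, 3.67, 3.69 and 3.63. Both also lay within the range of the nonspecific control probe sets, so their differences are not read as changes of these genes. Their partners were Rpl3, at 11.07, 11.02 and 11, and Rpl39, at 11.07, 11.01 and 11.01. Rpl10, whose protein sits at the peptidyl transferase centre, had 10.73, 10.74 and 10.72, and Rps4x 10.23, 10.15 and 10.13. Nothing was analysed here under the symbols Rpl10l and Rps4l.

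The direction was shared by several probe sets of the same gene more often than not. Among the 43 members with at least 2 probe sets of signal 8 or more, all of those probe sets were lower in SAMP8 + Water in 35 genes and all higher in 1, and 7 genes were mixed or held a 0. Over their 127 probe sets, the SD between probe sets of the same gene was 0.049 on the log2 scale, against an SD of 0.0719 between the gene means. This spread is between probe sets of the same RNA, and is not a replicate error. Of all 160 member probe sets with a signal of 8 or more, 145 were lower, with a median of -0.08. Of the 70 dimmer ones, 44 were lower, with a median of -0.05. Over all probe sets 49.6% were lower, and 28.1% of those of no member with a signal of 10 or more. Shares at a signal of 8 or more or under 8, and for other genes with several bright probe sets, were not computed. Genes with different bright probe sets in opposite directions include Rpl18, whose 3 bright probe sets differed by -0.21 to 0.04.

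**Figure D2:**
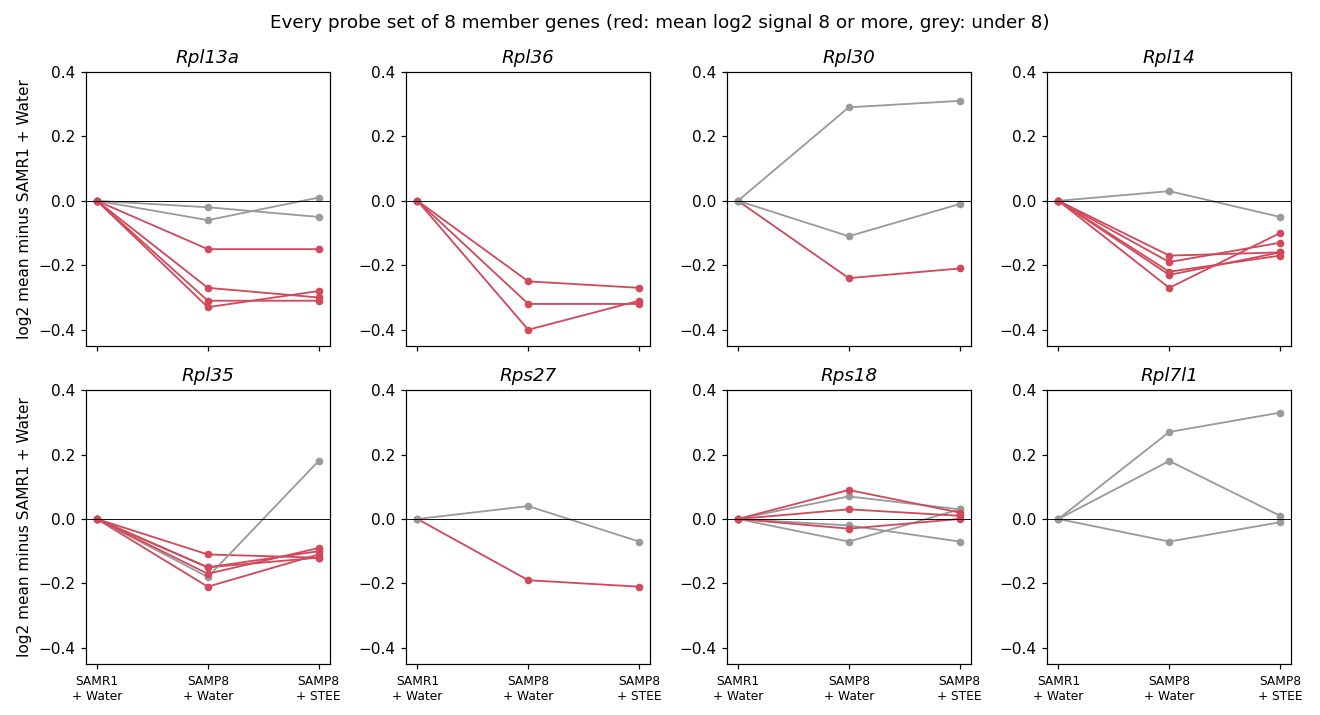
Log2 group mean minus the SAMR1 + Water mean of the same probe set, for every probe set of 8 members; each line joins the 3 groups for 1 probe set, and red lines have a mean log2 signal of 8 or more. Bright probe sets of Rpl13a, Rpl36, Rpl14 and Rpl35 all lie below 0 in both SAMP8 groups, while those of Rps18 lie on both sides of 0 and the 3 dimmer ones of Rpl7l1 part from each other.

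Many member probe sets cannot be assigned to 1 gene. Of the 230, 116 also name a predicted gene or pseudogene, as did the brightest probe set of 41 of the 80 members. The median log2 difference between the strains was -0.06 for the 42 members whose brightest probe set is shared with another symbol and -0.065 for the 38 whose brightest probe set names 1 gene. By signal, the median was -0.05 for the 14 members with a mean log2 signal of 11 or more, of which none passed 1.1-fold, and -0.08 for the 45 between 10 and 11 and for the 17 between 9 and 10. The highest group mean on the array was 12.18, and Rps29, the brightest member probe set, was at 12.04, 11.97 and 12.00. Members lie on 19 chromosomes, and 14 of them are on chromosome 7, where the median difference was -0.08.

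The comparison of SAMP8 + STEE with SAMP8 + Water asks what the extract changed within the SAMP8 strain. The members showed almost no displacement. Of the 80, 40 were lower in SAMP8 + STEE, 14 were equal and 26 were higher, against 48.1% lower among all probe sets and 41.4% among the bright ones of no member. The median log2 difference was -0.005 and the range was -0.17 to 0.10, and 69 members differed by no more than 0.05. The 25th to 75th percentiles were -0.02 to 0.02 for the members and -0.02 to 0.03 for the bright probe sets of no member. Small differences were thus usual at this signal and not particular to the members. By 1.1-fold or more, 1 member was lower, Rpl7l1 (background 8.00% of all probe sets and 0.229% of the bright ones of no member, the probe set of Rpl7l1 not being bright), and 0 were higher (background 8.25%). Since both comparisons use the SAMP8 + Water arrays, an error in that mean would enter them with opposite signs.

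The largest positive differences with STEE included those of Rpl35 (0.10), Rps25 (0.07), and Rpl11 and Rps20 (0.06 each). For Rpl35, 4 of the 5 bright probe sets were higher in SAMP8 + STEE, by up to 0.10, and 1 was lower by -0.01. Rps25, a 40S protein needed for initiation at some viral internal ribosome entry sites, had log2 means of 10.39, 10.27 and 10.34 in SAMR1 + Water, SAMP8 + Water and SAMP8 + STEE. All 5 bright probe sets of Rpl14 were higher in SAMP8 + STEE than in SAMP8 + Water, by 0.01 to 0.17, and all 5 lay below SAMR1 + Water, by -0.17 to -0.10. Rpl14 was singled out after its values were seen.

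The largest negative differences after Rpl7l1 were those of Rps18 and Rps3 (-0.07 each) and Rpl18, Rps27l and Rpl39l (-0.06 each), those of Rpl7l1 and Rpl39l being at signals within the range of the nonspecific control probe sets. Rpl18 had log2 means of 9.81, 9.79 and 9.73, and its 3 bright probe sets differed with STEE by -0.06 to 0.08. Over the 43 members with several bright probe sets, all were lower with STEE in 7, all higher in 7, and 29 were mixed or held a 0. The SD between probe sets of the same gene was 0.0376, larger than the SD of 0.0274 between the gene means, so the differences between genes in this comparison were of the size of the differences between probe sets.

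SAMP8 + STEE was also set against SAMR1 + Water, which differ in both strain and extract. Of the 80 members, 73 were lower in SAMP8 + STEE, 1 was equal and 6 were higher, against 52.4% lower among all probe sets and 31.6% among the bright ones of no member. The median log2 difference was -0.07, with a range of -0.31 to 0.07. SAMR1 + Water had the highest of the 3 group means in 69 members and the lowest in 6. The share of all probe sets with such an order was not computed, so these counts describe the members only. The value of Rpl13a was -0.31 and that of Rpl36 -0.27, while Rpl7l1 was 0.01 above SAMR1 + Water.

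Other parts of the protein synthesis machinery were read from lists in the same way. Rpsa, a 40S protein outside the naming rule, had log2 means of 10.36, 10.13 and 10.12 in SAMR1 + Water, SAMP8 + Water and SAMP8 + STEE, and Fau, the source of the 40S protein eS30, 10.38, 10.26 and 10.25. Rps3a1 and Rps4y2, whose symbols end in a letter and a number that the naming rule did not take, had 10.91, 10.89 and 10.89, and 3.44, 3.65 and 3.59. Rps4y2 lay within the range of the nonspecific control probe sets, so its difference is not read as a change of the gene. Rack1 (listed as Gnb2l1) was lower in SAMP8 + Water by -0.02, and Rpl36al shares its brightest probe set with Rpl36a, at 9.51 in all groups. Of the 13 elongation factors and other TOP mRNAs, 7 were lower in SAMP8 + Water, 1 was equal and 5 were higher, with a median of -0.01. They included Eef1b2 (-0.11), the exchange factor for Eef1a1 (0.06), and Eef2 (-0.09), the translocation factor.

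Of ribosome biogenesis genes and mitochondrial ribosomal protein genes, more were higher than lower in SAMP8 + Water. Higher values were found for 46.5% of all probe sets and 64.1% of the bright ones of no member. The shares of both lists lay nearer to that of the bright ones, and no share was computed at the signal of these lists. Of the 20 biogenesis genes, 14 were higher and 5 lower, with a median of 0.07. Polr1a, the largest subunit of RNA polymerase I, had log2 means of 5.20, 5.49 and 5.48, and Gnl3 (nucleostemin) 7.36, 7.12 and 7.10. Polr1a and others of the list, among them Bop1, Bysl and Taf1a, lay within the nonspecific control probe set range (2.03 to 6.85, median 2.43). Their differences are not read as changes of these genes, and the count and median of the list carry that limit. Of the 76 mitochondrial ribosomal protein genes, 48 were higher in SAMP8 + Water and 24 lower, with a median of 0.04. With STEE, 60 of these 76 were higher and 12 lower, again with a median of 0.04, where 47.3% of all probe sets and 48.5% of the bright ones of no member were higher. Among the 12 mTOR, S6 kinase and TOP regulators, 7 were lower in SAMP8 + Water and 4 higher, with a median of -0.02, beside 49.6% lower among all probe sets. Eif4e, the cap-binding protein, had log2 means of 8.32, 8.63 and 8.74, Rheb, the activator of mTOR, 9.84, 10.01 and 10.01, and Rps6kb2, an S6 kinase, 4.74, 4.49 and 4.64. Larp1 differed by 0.05 and Mtor by -0.03. Rps6kb2 and other genes of the mTOR and mitochondrial lists also lay within the range of the nonspecific control probe sets.

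**Figure D3:**
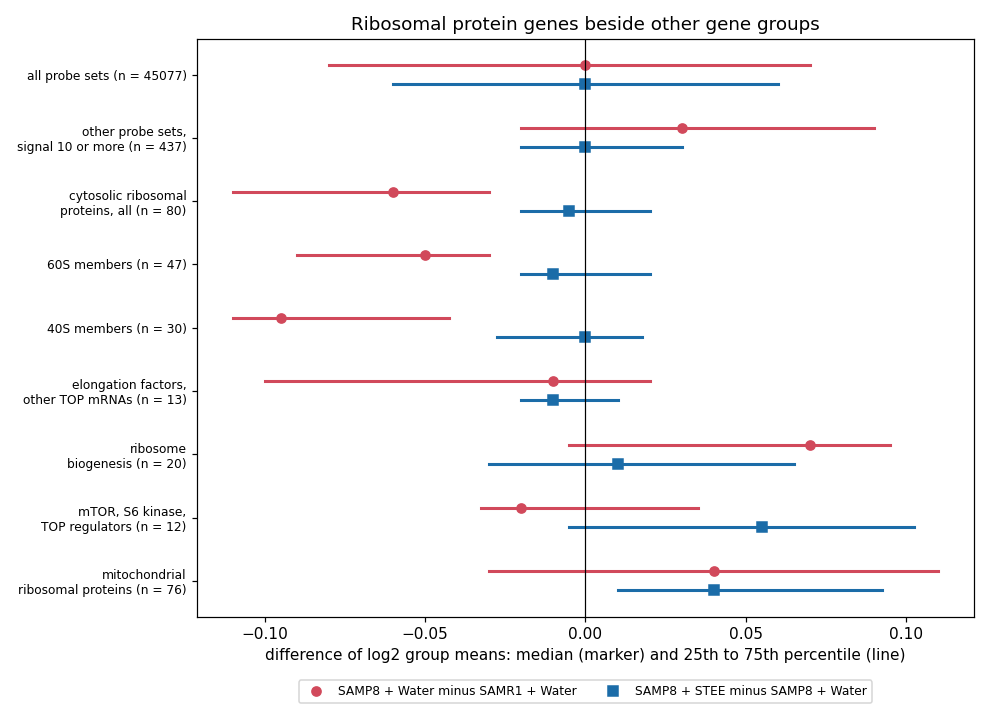
Median (marker) and 25th to 75th percentile (line) of the log2 differences over genes, or over probe sets in the first 2 rows, for the strain comparison (circles) and the STEE comparison (squares). In the strain comparison the cytosolic ribosomal proteins have a median of -0.06, against 0.04 for the mitochondrial ones and 0.03 for other bright probe sets.

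Markers of the cell types of cortex were present, with Camk2a of excitatory neurons at a log2 mean of 10.97 in SAMR1 + Water and Gad1 of interneurons at 10.67. Marker levels also differed between the strains. All 5 oligodendrocyte markers were lower in SAMP8 + Water, with a median of -0.31, and the log2 of their summed signal was 13.15 in SAMR1 + Water, 12.98 in SAMP8 + Water and 12.94 in SAMP8 + STEE. Of 4 microglia markers 3 were lower (median -0.055), with a log2 summed signal of 9.60, 9.46 and 9.43 in that order. Of 4 astrocyte markers 3 were lower and 1 equal (median -0.10), at 11.94, 11.91 and 11.94 summed, and all 3 endothelial markers were lower (median -0.09), at 7.45, 7.30 and 7.43 summed. Of 5 excitatory neuron markers 4 were higher (median 0.05), and of 4 interneuron markers 3 (median 0.125). Of 4 blood markers, 2 of them on the same probe set, 2 were lower (median -0.035). Ttr of the choroid plexus had log2 means of 10.20, 8.24 and 9.33, and Kcnj13 of the same tissue 3.68, 3.25 and 3.47, while Kl and Folr1 lay between 3.15 and 3.64 in every group. With STEE, all 5 excitatory neuron markers (median 0.13) and all 3 endothelial markers (median 0.14) were higher than in SAMP8 + Water. All 3 endothelial markers, however, lay within the range of the nonspecific control probe sets (2.03 to 6.85, median 2.43) in every group. So did Kcnj13, Kl, Folr1, Mog, Aldh1l1, Tmem119 and Alas2. The differences of these markers are given as values and not read as changes of the genes. The part of cell composition in the differences of the cytosolic and mitochondrial ribosomal protein genes was not tested.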

How the data were processed

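RNA from cerebral cortex was labelled by the authors and hybridised to Affymetrix mouse array strips, with 2 biological samples in each of 3 groups. The authors summarised probe intensities with RMA in Affymetrix Expression Console and deposited, for each probe set, log2 group means (bi-weight averages from Transcriptome Analysis Console, rounded to 2 decimals). RMA equalises the distribution of signals between arrays, so a difference is relative to the other probe sets. The number of arrays limits the precision. The authors' fold changes and p-values, which the tables also hold, were not used. Per-array values were not analysed here.

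Differences of group means were computed for all 45077 probe sets (Python 3 with numpy and pandas), and the code was tested on simulated data. Where a gene had several probe sets, the brightest over the 3 group means stood for it. Named genes were the 5 largest differences each way in both comparisons, ties included, with the P-stalk, the paralogues and Rps6, and those past 1.1-fold. The members and lists were chosen with earlier results of these data known. A few genes are counted but not reported by name here. The ends of the Gapdh and actin mRNAs, a usual sign of RNA quality, were not analysed here.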

Additional observations from a re-analysis of the deposited data

How the results depend on the processing

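No paired analysis was possible because only group means were used, and leaving out each replicate could not be run for the same reason. Among the cytosolic ribosomal protein genes, 82 of 98 values under the alternatives stayed within 0.02 (medians) or 1.5 times (counts) of those reported. In SAMP8 + Water against SAMR1 + Water, the median of -0.06 became -0.03 when groups were centred on the probe sets of signal 10 or more, 104 of which are members. With that centring, 57 members in place of 69 were lower in the strain comparison, and 54 in place of 40 in the STEE comparison. These counts are within the 1.5 times limit, yet the balance of lower and higher members depended on the centring. With single-symbol probe sets only (48 genes in place of 80), 38 genes were lower in that comparison, 22 in SAMP8 + STEE against SAMP8 + Water and 41 in SAMP8 + STEE against SAMR1 + Water. In the strain comparison, 36 genes were lower with the fold threshold set at a 5% difference and 1 with it at 20%, and 3 and 0 were higher, while 0 were higher past 1.1-fold when all probe sets of a gene were averaged. In the STEE comparison, the 1 gene lower past 1.1-fold became 0 with averaged probe sets or a 20% threshold and 2 with single-symbol probe sets or without probe sets of the cross-hybridising _x_at kind. The 0 genes higher past 1.1-fold became 1 with single-symbol probe sets, 3 without the _x_at kind and 1 with a 5% threshold. Some of these genes were read from dim probe sets. Without the _x_at kind, the higher ones included Rps24 (mean log2 signal 4.40) and Rpl14 (8.88). With single-symbol probe sets, the higher one was Rpl27a (7.42). The added lower one was Rpl21 (4.12) without the _x_at kind and Rpl12 (4.91) with single-symbol probe sets. Rps24, Rpl21 and Rpl12 there lay within the nonspecific control range and are not read as changed. The causes were not tested. A centring chosen after seeing the data, on bright probe sets of no member, gave medians of -0.07 for the strain comparison, 0.005 for the STEE comparison and -0.07 for SAMP8 + STEE against SAMR1 + Water. With it, 71 members were lower in the strain comparison and 30 in the STEE comparison. With 2 arrays a group and no spread used, no difference of a single gene can be set against its replicate error.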
